A study of Mus musculus with 18 samples.

Results

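Slc15a2, Enpp2 and Aire were described across 9 conditions of mouse cells differentiated towards primordial germ cell-like cells (PGCLCs). The genes were chosen by measured values of these libraries, as steep falls in TKO cells (lacking Tet1, Tet2 and Tet3) against wild-type PGCLCs at day 6 with cytokines among genes that are not lowly counted. They are 3 of the 25239 genes counted, and all 3 were among the 16582 that passed the filter on low counts. In the comparison that chose them, their log2 fold changes were -6.36 for Slc15a2, -4.86 for Enpp2 and -4.71 for Aire. Among 4140 lower genes with a mean count of 50 or more in the 4 libraries compared and no overlap between the groups, these were ranks 1, 2 and 3, and the next genes were Pla2g4e at -4.26 and Tet1 at -4.20. With the mean count taken over all 18 libraries the ranks were 2, 5 and 8, and among all 7735 lower genes tested, with no minimum count, they were 3, 21 and 25. In that comparison 18.9% of all genes tested passed an adjusted p of 0.05, 7.53% as lower in TKO, and nothing is read from the members' place in it.

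Slc15a2 encodes PEPT2, a proton-coupled transporter that carries dipeptides and tripeptides into cells and is best known from kidney, choroid plexus and lung. Enpp2 encodes autotaxin, a secreted lysophospholipase D that makes the lipid mediator lysophosphatidic acid (LPA) outside the cell, where LPA acts on a family of G protein-coupled receptors. Aire encodes the autoimmune regulator, a nuclear protein of medullary thymic epithelium that switches on tissue-restricted genes there. TET proteins oxidise 5-methylcytosine, which in mammals lies mostly in CG dinucleotides, and so promote DNA demethylation.

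All libraries came from the E14Tg2a mouse embryonic stem cell line. The wild type was the parental line, and TKO was 1 clone in which the open reading frames of Tet1, Tet2 and Tet3 had been excised, so loss of the TET proteins and any other property of this clone cannot be told apart. Cells were first turned into epiblast-like cells (EpiLCs, called day 0) with activin A and FGF and then grown as floating aggregates with or without BMP4, BMP8a, SCF, LIF and EGF, called cytokines here. There were 2 libraries in each of 9 conditions: EpiLCs of both genotypes, wild type without cytokines at days 2 and 6, wild type with cytokines at day 6, and TKO with and without cytokines at days 2 and 6. The labels call the day 6 wild-type cells with cytokines aggregates, whereas the study's own description says that they were sorted for SSEA1 and CD61 and that the other aggregates were taken whole. The comparison that chose the genes therefore also sets sorted against unsorted cells, and genotype and sorting cannot be told apart in it. Wild-type cells with cytokines at day 2 and embryonic stem cells were not analysed here. The study calls the libraries of a condition biological replicates. The labels do not say whether they came from separate cultures. The p-values rest on the spread between libraries of the same condition, estimated over all 9 conditions together.

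Libraries held 11286050 to 41257861 counts, of which 16.2% to 47.6% fell on the ribosomal RNA locus Rn45s. This share was 47.6% and 40.7% in wild-type EpiLCs and 33.1% and 37.3% in TKO EpiLCs. Without cytokines it was 21.5% and 31.3% in wild type and 16.2% and 20.9% in TKO at day 2. At day 6 without cytokines it was 22.3% and 18.3%, and 17.5% and 18.4%. It thus differed between conditions compared here, and its part in the results was not tested. Normalised counts of Tet1 ran from 595 to 12106 in the 8 wild-type libraries and from 504 to 1937 in the 10 TKO libraries. Those of Tet2 ran from 125 to 4812 and from 31.7 to 405, and those of Tet3 from 171 to 5849 and from 54.6 to 252. Compared within a stage without cytokines, 2 of the 3 Tet genes were called lower in TKO EpiLCs (Tet1 and Tet3), 1 at day 2 (Tet3) and 2 at day 6 (Tet2 and Tet3). Counts per gene also hold reads from exons outside the excised parts, so counts left in TKO do not speak to the excision. The 2 wild-type day 6 libraries without cytokines differed in makeup: Ttr, a choroid plexus transcript, had normalised counts of 5.44 and 1331. Because these are bulk libraries, fewer cells with a transcript and less of it in each cell cannot be told apart.

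Promoter sequence from RefSeq (GRCm38.p6) was matched by symbol for 2 of the 3 genes, Slc15a2 and Aire. It is shown because TET proteins act on CG dinucleotides. Methylation was not measured in these libraries, and the sequence is a description only. The lines give the 250 bases before the start of transcription that the table uses, 5′ to 3′, with each CG in capitals. Slc15a2 lies on the minus strand (chr16:36784963-36785212), and so does Aire (chr10:78043611-78043860). Of the Slc15a2 window, 196 bases lie inside the widest RefSeq extent of the gene, which begins further upstream than the start used here, and 0 lie in its GENCODE M21 exons. The Aire window lies outside Aire but wholly inside Dnmt3l, a gene on the opposite strand.
Slc15a2: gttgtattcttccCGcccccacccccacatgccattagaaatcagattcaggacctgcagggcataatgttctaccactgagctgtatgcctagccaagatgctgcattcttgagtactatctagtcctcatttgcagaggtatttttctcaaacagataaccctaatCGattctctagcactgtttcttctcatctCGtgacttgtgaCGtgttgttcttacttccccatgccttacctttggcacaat
Aire: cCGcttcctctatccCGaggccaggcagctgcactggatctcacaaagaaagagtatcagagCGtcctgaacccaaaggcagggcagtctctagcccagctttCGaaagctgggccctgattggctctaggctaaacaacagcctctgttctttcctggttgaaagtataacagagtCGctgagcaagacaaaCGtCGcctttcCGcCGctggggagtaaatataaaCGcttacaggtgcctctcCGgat
The Slc15a2 window held 4 CG dinucleotides and was 45.2% G or C. The Aire window held 11 and was 53.2% G or C. Over all 32851 windows of this length in the table the median was 6, and 92.1% held at least 1. At most 4 were found in 44.4% of windows and at least 11 in 35.6%.

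Slc15a2 was low in every TKO condition, already in EpiLCs. Its normalised counts in wild-type EpiLCs were 48.2 and 44.5. In wild type without cytokines they were 163 and 125 at day 2 and 144 and 81.1 at day 6. Wild-type PGCLCs held 355 and 438, the highest of the 18 libraries. In TKO EpiLCs they were 0 and 6.60, where a count of 0 allows up to 2.98. TKO cells without cytokines held 2.08 and 6.01 at day 2 and 18.3 and 12.6 at day 6. With cytokines they held 1.13 and 0 at day 2, the latter allowing up to 3.72, and 3.36 and 5.74 at day 6. The highest TKO library (18.3) thus lay below the lowest wild-type library (44.5). Over the 14 libraries outside the comparison that chose the genes, every one of 8 TKO libraries lay below every one of 6 wild-type libraries, which held for 2.36% of the genes tested and for neither Enpp2 nor Aire. In the order of condition means, wild-type PGCLCs were followed by wild type without cytokines at days 2 and 6, which overlap, then wild-type EpiLCs and TKO at day 6 without cytokines. The other 4 TKO conditions overlap their neighbours in that order.

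**Figure D1:**
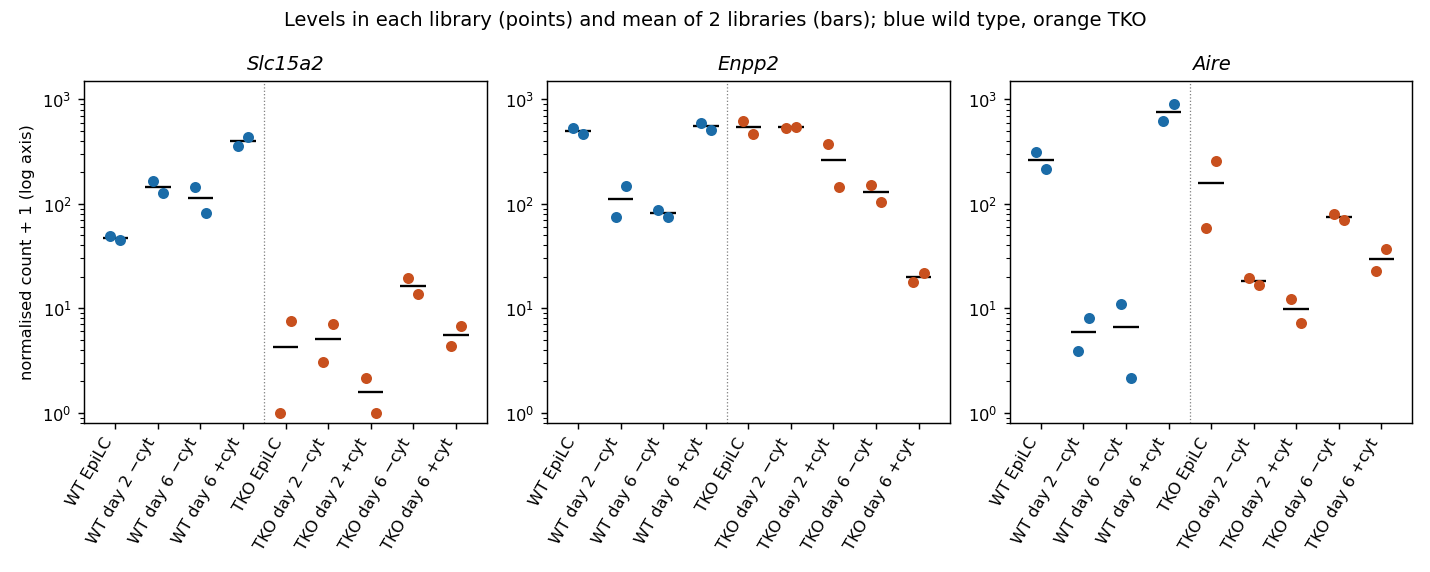
Normalised count plus 1 (log axis) of each gene in every library (points, 2 per condition, with bars at the mean), in 4 wild-type conditions (blue) and 5 TKO conditions (orange), with or without cytokines. Slc15a2 did not exceed 18.3 in any TKO library, Enpp2 lay between 467 and 615 in TKO EpiLCs and TKO at day 2 without cytokines, and Aire fell from EpiLCs to day 2 in both genotypes.

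Slc15a2 was lower in TKO than in wild type at each of the 3 stages that could be tested without the libraries that chose it. The log2 fold change was -3.79 in EpiLCs (SE 0.70, adjusted p = 0.00350, edgeR), lower in 2 of 2 libraries. There 10.8% of all genes were called (an adjusted p below 0.05) in either direction and 3.18% as lower, and of the 3 genes Slc15a2 was the 1 called. It was -5.18 at day 2 without cytokines (SE 0.66, adjusted p = 3.62e-05), where 14.8% of genes were called lower. It was -2.84 at day 6 without cytokines (SE 0.55, adjusted p = 0.000479), where 26.9% were. The EpiLC value rests on 0 and 6 raw counts in the TKO libraries. It was -2.75 without TKO EpiLC replicate 1, and -8.63 without replicate 2, when the remaining library holds 0 counts, so that this last value depends on the prior count. The day 2 value was -6.06 without TKO day 2 replicate 2.

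Within wild type Slc15a2 rose from EpiLCs to day 2 without cytokines by 1.68 on the log2 scale (SE 0.49, adjusted p = 0.0158), where 34.4% of genes were called and 18.6% as higher. This call was lost without wild-type day 2 replicate 1 (adjusted p = 0.0896), EpiLC replicate 1 (0.0788) or EpiLC replicate 2 (0.0996). From day 2 to day 6 the value was -0.39 (SE 0.47, adjusted p = 0.545). Within TKO none of its 4 tested differences passed: 0.29 from EpiLCs to day 2 without cytokines (adjusted p = 0.858), -2.21 with cytokines (0.325), 1.96 from day 2 to day 6 without cytokines (0.412) and -2.50 for cytokines at day 2 (0.274). The conditions of these tests held 1 to 27 raw counts each, which limits what was detectable at this depth. When 1 library was left out, the value from day 2 to day 6 ran from 1.37 to 2.84. That for cytokines at day 2 ran from -5.13 to -1.62. Tests of genotype by time gave -1.39 from EpiLCs to day 2 (adjusted p = 0.478) and 2.35 from day 2 to day 6 (0.0802), neither of which passed. The latter passed without wild-type day 6 replicate 1 (adjusted p = 0.0343) or either TKO EpiLC library (both 0.0274). Wild-type PGCLCs, which helped to choose the gene, stood at 8.56 times the wild-type EpiLC mean and 3.53 times the mean of wild type at day 6 without cytokines, given here without a test.

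The other 4 transporters of the Slc15 family, of which 3 were tested, were read beside it. Slc15a1 encodes PEPT1, the intestinal peptide transporter. It had normalised counts of 1.61 and 2.22 in wild-type EpiLCs, 0.975 and 0.777 at day 2 and 0.907 and 1.16 at day 6 without cytokines. In TKO it had 2.98 and 18.7 in EpiLCs, 237 and 171 at day 2 and 253 and 239.8 at day 6 without cytokines. So the direction after EpiLCs was opposite to that of Slc15a2. Counts were 238 times higher in TKO at day 2 (95% counting interval 65.5 to 1975, adjusted p = 8.80e-07 by edgeR) and 253 times higher at day 6 (85.9 to 1230, adjusted p = 9.11e-08). These intervals cover counting error only. At day 6 with cytokines Slc15a1 held 365 and 345 in wild-type PGCLCs and 388 and 397 in TKO. Slc15a4, a lysosomal transporter, had condition means between 292 and 492 and passed in none of the 3 genotype comparisons. Slc15a3 was lower in TKO at day 6 without cytokines (log2 fold change -1.71, SE 0.69, adjusted p = 0.0460), a call lost under either other filter, by DESeq2, by library size alone and with only the libraries compared.

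**Figure D2:**
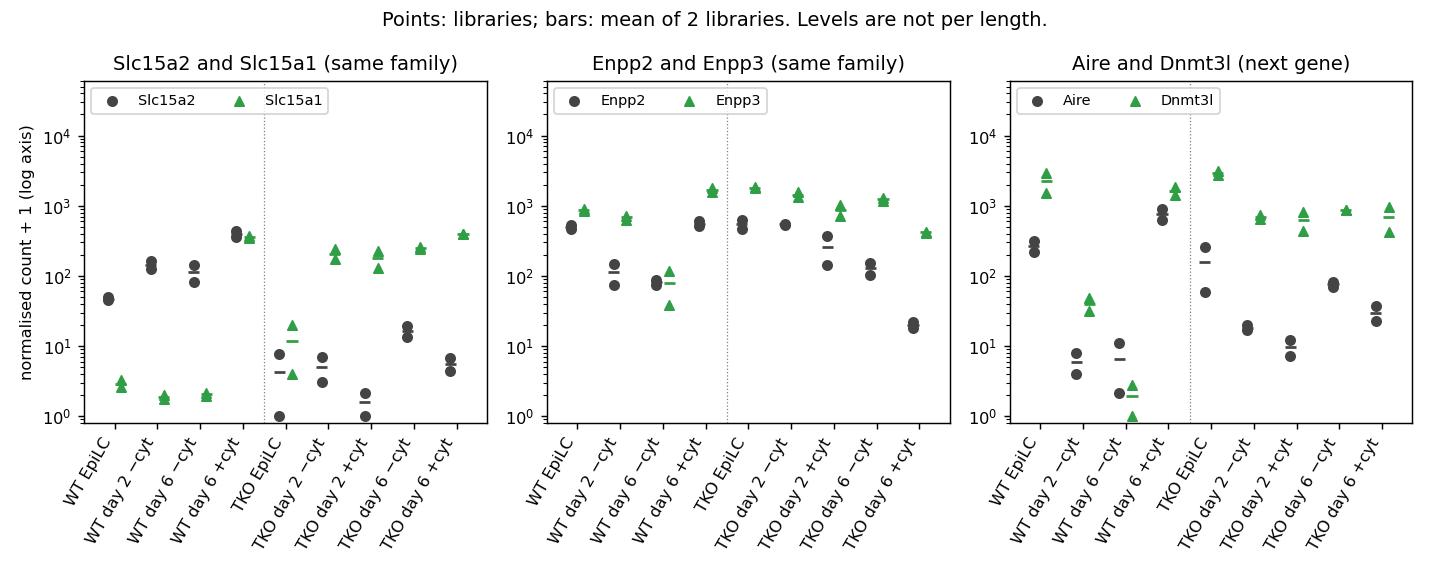
Normalised count plus 1 (log axis) in every library (points, with bars at the mean of 2) for each gene (dark circles) beside another gene (green triangles): Slc15a1 and Enpp3 of the same families, and Dnmt3l, which overlaps Aire. Levels are not per length, so each gene is to be read against itself: Slc15a1 was higher in TKO than in wild type without cytokines at days 2 and 6 and Slc15a2 lower, and Dnmt3l fell with Aire in wild type without cytokines.

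Enzymes that release, trim or break down small peptides and glutathione act on the kind of substrate that PEPT2 carries. Of 15 genes in this list, which includes PEPT2's scaffold and acid-exchange partners, 10 were tested. In TKO against wild type 1 was higher and 0 lower in EpiLCs, 4 higher and 0 lower at day 2, and 5 higher and 1 lower at day 6 without cytokines. Over all genes tested 10.8%, 32.8% and 55.4% were called at these 3 stages in either direction, the shares against which this and the following lists are to be read. Anpep, aminopeptidase N, was higher at all 3 stages, by 1.73 (SE 0.25, adjusted p = 0.000873), 1.56 (SE 0.26, adjusted p = 0.000321) and 3.62 (SE 0.29, adjusted p = 9.51e-08). Dpp4, a dipeptidyl peptidase, was higher at day 2 by 3.97 (SE 0.50, adjusted p = 3.04e-05). Ggt7, of the gamma-glutamyltransferase family, was the gene lower at day 6 (-1.54, SE 0.39, adjusted p = 0.00369). The summed level of 10 choroid plexus markers, a tissue in which Slc15a2 is known, was 292 to 322 in wild type and 1105 to 1403 in TKO at day 2 without cytokines, higher where Slc15a2 was lower. Much of that TKO sum was Folr1, a folate receptor, at 878 and 633 against 73.1 and 69.9 in wild type. In EpiLCs, where Slc15a2 was also lower in TKO, the sums overlapped, at 652 to 890.0 in wild type and 694 to 814 in TKO. At day 6 without cytokines they ran from 113 to 3549 in wild type and from 1328 to 1512 in TKO.

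Enpp2 was not low in TKO at the start. Its normalised counts were 533 and 462 in wild-type EpiLCs and 615 and 467 in TKO EpiLCs, which overlap. At day 2 without cytokines wild type held 74.1 and 148, and TKO held 533 and 545, so both TKO libraries were above both wild-type libraries. At day 6 without cytokines wild type held 86.6 and 74.1, and TKO 152 and 103. With cytokines TKO cells held 375 and 144 at day 2, a wide gap between replicates, and 16.8 and 20.7 at day 6. Wild-type PGCLCs held 599 and 508. In the order of condition means the 4 highest were wild-type PGCLCs, TKO EpiLCs, TKO at day 2 without cytokines and wild-type EpiLCs, and the first 3 overlap. The next 4 also overlap their neighbours, and the lowest was TKO at day 6 with cytokines.

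Enpp2 thus went against a plain description as a gene lost in TKO. In EpiLCs the log2 fold change of TKO against wild type was 0.15 (SE 0.36, adjusted p = 0.842, edgeR). At day 2 without cytokines Enpp2 was higher in TKO by 2.23 (SE 0.38, adjusted p = 0.000446), in 2 of 2 libraries, where 32.8% of genes were called and 18% as higher. Of the 3 genes 1 was called higher there and 1 lower. The value was 2.83 without wild-type day 2 replicate 2. At day 6 without cytokines the value was 0.68 (SE 0.39, adjusted p = 0.148).

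In wild type Enpp2 fell from EpiLCs to day 2 without cytokines, with a log2 fold change of -2.09 (SE 0.38, adjusted p = 0.000703), where 15.7% of genes were called lower. Without wild-type day 2 replicate 2 it was -2.71. In TKO the same step gave -0.02 (SE 0.36, adjusted p = 0.980), where 18.7% of genes were called. The difference between these changes was 2.08 (SE 0.52, adjusted p = 0.0161), and 12.3% of genes passed this test of genotype by time, 6.08% as higher. This call was lost without TKO EpiLC replicate 2 (adjusted p = 0.0561), TKO day 2 replicate 1 (0.0510), wild-type day 2 replicate 1 (0.0771) or wild-type EpiLC replicate 1 (0.0596).

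In TKO without cytokines Enpp2 fell from day 2 to day 6, with a log2 fold change of -2.07 (SE 0.38, adjusted p = 0.0249). Few genes passed this comparison, 0.476% in all and 0.0543% as lower, and Enpp2 was 1 of the 9 lower genes. The call was lost when any of the 4 libraries of these conditions was left out: without day 2 replicate 1 or 2 the adjusted p was 0.162 or 0.207, and without day 6 replicate 1 or 2 it was 0.130 or 0.281. The same step in wild type gave -0.52 (SE 0.38, adjusted p = 0.305), where 39.5% of genes were called and none of the 3. The test of genotype by time from day 2 to day 6, passed by 18.3% of genes and none of the 3, gave -1.55 (SE 0.54, adjusted p = 0.0578). It passed without wild-type day 2 replicate 2 (adjusted p = 0.0221), wild-type day 6 replicate 2 (0.0376) or either TKO day 2 library with cytokines (0.0221 and 0.0218). With cytokines at day 2 Enpp2 in TKO differed by -1.04 from cells without (SE 0.37, adjusted p = 0.106), where 4.52% of genes were called and again none of the 3. This difference ran from -1.88 to -0.51 when 1 library was left out. From EpiLCs to day 2 with cytokines in TKO the value was -1.05 (SE 0.37, adjusted p = 0.0685), and without TKO day 2 replicate 1 with cytokines it was -1.90 (adjusted p = 0.00846). It also passed without any 1 of 3 wild-type libraries outside this comparison, with adjusted p between 0.0403 and 0.0492, and by DESeq2 (adjusted p = 0.0407) or with no filter on low counts (0.0163). TKO cells with cytokines at day 6, which helped to choose the gene, held 3.38% of the wild-type PGCLC mean, and TKO cells without cytokines at day 6 held 23.1%.

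**Figure D3:**
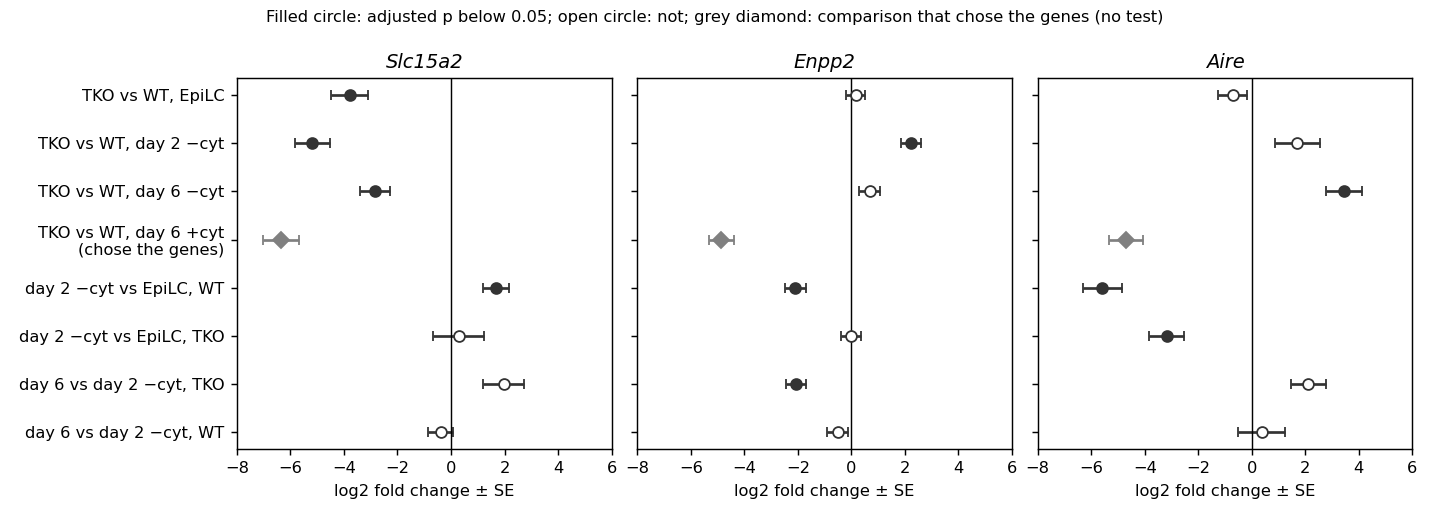
Log2 fold change (points) with its standard error (bars) for each gene in 8 comparisons. Filled circles had an adjusted p below 0.05, open circles did not, and the grey diamond is the comparison that chose the genes. Slc15a2 lay below 0 in all 3 tested genotype comparisons, whereas Enpp2 lay above 0 at day 2 without cytokines (2.23) and Aire above 0 at day 6 without cytokines (3.44).

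Other genes of the autotaxin family and of LPA turnover were read beside Enpp2. Of 6 relatives, 4 were tested. In TKO against wild type 2 were higher and 0 lower in EpiLCs, 3 higher and 0 lower at day 2, and 3 higher and 1 lower at day 6 without cytokines. Enpp3, a nucleotide pyrophosphatase of the cell surface, was higher at all 3 stages, by 1.08 (SE 0.30, adjusted p = 0.0320), 1.06 (SE 0.30, adjusted p = 0.0143) and 3.94 (SE 0.34, adjusted p = 2.25e-07). With cytokines at day 6 it held 1790 and 1584 in wild-type PGCLCs and 427 and 406 in TKO. In that comparison, which chose Enpp2, 3 of the 4 tested relatives were called lower in TKO (Enpp3, Enpp4 and Enpp5), where 7.53% of all genes were, and 1 higher (Enpp1, 2.78 and 11.6 against 62.2 and 64.3). Enpp4 held 479 and 399.6 in wild type and 199.9 and 247 in TKO there, and Enpp5 143 and 153 and 45.4 and 80.4. Enpp4 resembled Enpp2 over the first step: it fell in wild type (-2.62, SE 0.34, adjusted p = 4.69e-05) and was higher in TKO than in wild type at day 2 (3.13, SE 0.34, adjusted p = 9.45e-06). In TKO it rose over that step (1.22, SE 0.31, adjusted p = 0.0141).

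Of the 5 tested enzymes that also yield LPA or its precursors, 0 passed in EpiLCs, and 3 were higher and 1 lower in TKO at day 2 and again at day 6 without cytokines. Liph, a phosphatidic acid-selective phospholipase, had normalised counts of 233 and 137 in wild-type EpiLCs, 17.5 and 12.4 in wild type at day 2 and 212 and 187 in TKO at day 2. It fell over that step in wild type (-3.56, SE 0.48, adjusted p = 6.32e-05) and was higher in TKO at day 2 (3.71, SE 0.48, adjusted p = 4.17e-05) and at day 6 (5.31, SE 0.55, adjusted p = 1.36e-06). Gdpd1, a glycerophosphodiesterase with lysophospholipase D activity, was the lower gene, with log2 fold changes of -1.85 at day 2 (SE 0.40, adjusted p = 0.00259) and -3.32 at day 6 (SE 0.39, adjusted p = 5.45e-06).

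The phosphatases Plpp1, Plpp2 and Plpp3 remove LPA. Plpp3 was higher in TKO EpiLCs (1.45, SE 0.30, adjusted p = 0.00757), while at days 2 and 6 without cytokines Plpp1 was higher and Plpp2 lower. Of the 6 LPA receptors all were tested: 1 was higher and 0 lower in TKO EpiLCs, 2 higher and 3 lower at day 2, and 3 higher and 0 lower at day 6, the last near the 55.4% of all genes called there. Lpar1 was higher at all 3 stages, by 1.38 (SE 0.27, adjusted p = 0.00569), 1.01 (SE 0.26, adjusted p = 0.00817) and 1.74 (SE 0.26, adjusted p = 5.17e-05). Lpar4 and Lpar6 rose in wild type from EpiLCs to day 2 (3.21, SE 0.33, adjusted p = 6.50e-06, and 3.92, SE 0.41, adjusted p = 6.50e-06), a step at which Enpp2 fell, and both were lower in TKO at day 2 (-1.93 and -1.58). The 10 oligodendrocyte and astrocyte markers, of cells in which Enpp2 is known, summed to 1046 to 1059 in wild type and 909.5 to 1078 in TKO at day 2 without cytokines, which overlap. In EpiLCs they summed to 705 to 719.7 and 932 to 967. At day 6 with cytokines, the comparison that chose Enpp2, they summed to 1616 to 1819 in wild-type PGCLCs and 643 to 839.9 in TKO. Of the 10 genes 2 were called lower and 1 higher, with a median log2 fold change of 0.12 (all genes 0.05). The sum was lower where Enpp2 was lower, but most of its genes were not called. Its part in the result for Enpp2 was not tested.

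**Figure D4:**
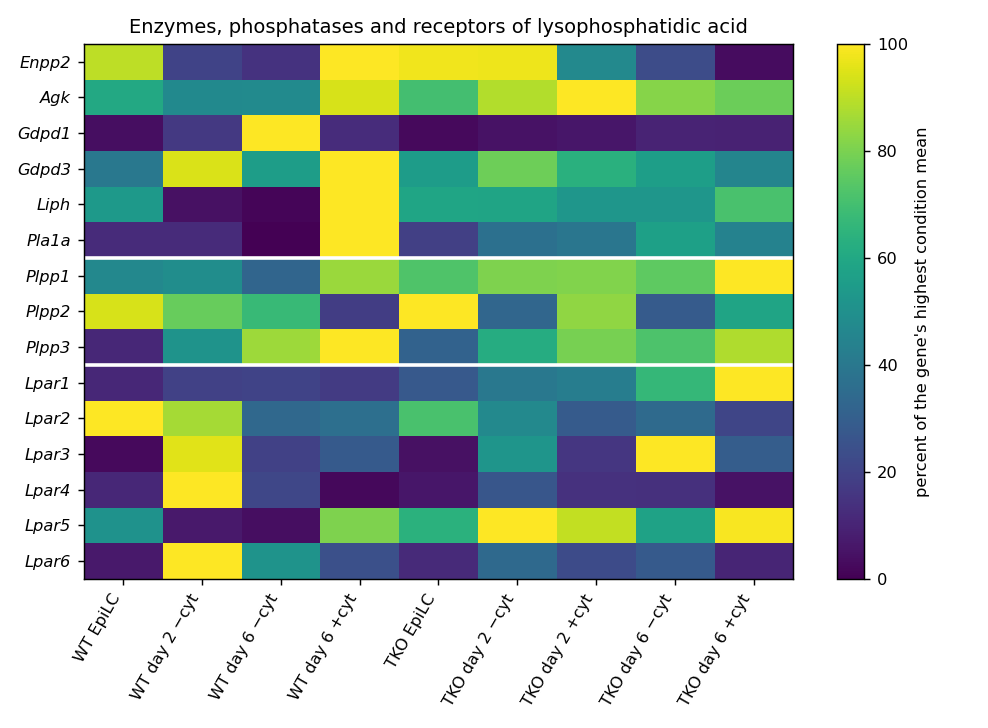
Mean level in each of 9 conditions as a percent of the gene's own highest condition mean (colour), for Enpp2 with 5 other LPA-producing enzymes, 3 phosphatases and 6 receptors. Enpp2 was at 97.5% in TKO at day 2 without cytokines and 20.1% in wild type, and at 3.38% in TKO at day 6 with cytokines, where Liph was at 71.3%.

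Aire fell from EpiLCs to day 2 in both genotypes. Its normalised counts were 315 and 215 in wild-type EpiLCs and 57.5 and 255 in TKO EpiLCs, where the replicates lay far apart. Wild type without cytokines held 2.92 and 6.99 at day 2 and 9.97 and 1.16 at day 6. TKO cells held 18.7 and 15.6 at day 2 without cytokines and 11.3 and 6.21 with. At day 6 TKO held 79.7 and 69.4 without cytokines and 21.8 and 35.6 with. Wild-type PGCLCs held 627 and 902, above every other library, as for Slc15a2. TKO without cytokines at day 6 was at 9.75% of the PGCLC mean and TKO with cytokines at 3.75%. In the order of condition means wild-type EpiLCs, TKO EpiLCs and TKO at day 6 without cytokines came next. TKO EpiLCs overlap each of the others, which do not overlap one another. The lowest 3, TKO at day 2 with cytokines and wild type without cytokines at days 6 and 2, overlap.

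The log2 fold change to day 2 was -5.59 in wild type (SE 0.73, adjusted p = 4.83e-05). In TKO it was -3.18 without cytokines (SE 0.64, adjusted p = 0.00412), where 8.52% of genes were called lower, and -4.12 with cytokines (SE 0.71, adjusted p = 0.00121), where 14.3% were called and 6.39% as lower. Of the 3 genes Aire was the 1 that passed in TKO over this step. Without TKO EpiLC replicate 2 the TKO values were -1.74 (adjusted p = 0.0673) and -2.68 (0.0143), and without TKO day 2 replicate 2 the call without cytokines was lost (adjusted p = 0.0508). The wild-type value was -6.40 without wild-type day 2 replicate 2. The test of genotype by time gave 2.41 (SE 0.99, adjusted p = 0.135), so a smaller fall in TKO was not shown; without TKO EpiLC replicate 2 it was 3.85 (adjusted p = 0.00774).

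In EpiLCs the value for TKO against wild type was -0.72 (SE 0.53, adjusted p = 0.425). Without TKO EpiLC replicate 2 it was -2.16 (adjusted p = 0.0351), so that 1 library decides the call. At day 2 without cytokines it was 1.69 (SE 0.84, adjusted p = 0.137), on 12 raw counts in wild type and 31 in TKO. This day 2 value ran from 1.23 to 2.47 when 1 library was left out. At day 6 without cytokines Aire was higher in TKO by 3.44 (SE 0.69, adjusted p = 0.000610), in 2 of 2 libraries, where 55.4% of genes were called and 28.5% as higher. Wild type held 22 and 1 raw counts there and TKO 74 and 55. Without wild-type day 6 replicate 1 the value was 5.88, against a library with 1 count. Aire was thus not lower in TKO at day 6 without cytokines, against wild-type cells that held little of it. Against the wild-type PGCLC mean, which helped to choose the gene, Aire was low in these TKO aggregates too. It stood at 2.24% at day 2 without cytokines, 1.15% at day 2 with and 9.75% at day 6 without, given without a test. In TKO without cytokines the change from day 2 to day 6 was 2.11 (SE 0.65, adjusted p = 0.235).

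Markers of thymic epithelium, the tissue in which Aire is best known, were measured in the same libraries. Foxn1, the defining factor of that tissue, had at most 12 raw counts in any library, and was among the genes called higher in TKO at day 6 without cytokines (adjusted p = 0.00619). Of 13 thymic epithelium markers 9 were tested, and 0 passed in EpiLCs, 4 were higher and 1 lower in TKO at day 2, and 5 higher and 1 lower at day 6 without cytokines. Their summed level at day 6 without cytokines was 177 to 309.6 in wild type, with 6 of the genes at 0 in both libraries, and 1524 to 2129 in TKO. Most of the TKO sum, in counts not divided by length, was Cldn4, a tight junction gene of many epithelia, with a mean of 1412 there and 5.62 in wild type. Aire was higher in TKO in the same comparison, and the part of these markers in that was not tested. With cytokines at day 6 the sum was 1487 to 1911 in wild type and 2055 to 2110 in TKO, higher in TKO where Aire was lower. Of the 9 tested genes, however, only 1 was called higher there and 0 lower, where 18.9% of all genes were called.

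Of 6 relatives of Aire with SAND or PHD domains 5 were tested, and 0 were higher and 1 lower in TKO EpiLCs, 2 higher and 0 lower at day 2, and 1 higher and 2 lower at day 6 without cytokines. Sp110, an interferon-inducible nuclear body protein, had means of 15.1 and 40.7 in TKO at days 2 and 6 without cytokines and 1.26 and 0.227 in wild type. Deaf1 and Gmeb2 were lower at day 6 (-0.63, SE 0.20, adjusted p = 0.0133, and -0.45, SE 0.15, adjusted p = 0.0220), neither of them after scaling by library size alone. Of 21 proteins that work with Aire all were tested, and 1 was higher and 2 lower in EpiLCs, 4 higher and 2 lower at day 2, and 12 higher and 4 lower at day 6. The 6 of 21 called at day 2 lie near the 32.8% of all genes called there. Msh6, a mismatch repair protein, was higher by 0.91 at day 2 (SE 0.21, adjusted p = 0.00389) and 2.26 at day 6 (SE 0.22, adjusted p = 6.51e-07). Of 8 genes of the pathway that induces Aire in thymus (RANK, CD40 and non-canonical NF-κB), 2 were higher in TKO EpiLCs, 3 lower at day 2, and 4 higher and 2 lower at day 6. Nfkb2 and Relb had the direction of Aire at day 6 (1.48, SE 0.20, adjusted p = 1.81e-05, and 0.82, SE 0.25, adjusted p = 0.0131) but were lower in TKO at day 2 (-0.93 and -0.94). Rbp3, a retinal gene and the 1 testable of 6 known Aire-dependent tissue antigens, had normalised counts of 402 and 730.5 in TKO and 0 and 0 in wild type at day 2 without cytokines, where it was called higher in TKO (adjusted p = 4.04e-07) and Aire was not. It had 5.95 and 5.50 in TKO EpiLCs and 0 and 0 in wild-type PGCLCs, where Aire was highest. It held, at day 6 without cytokines, 551 and 835 in TKO and 0 and 1.16 in wild type and was called higher in TKO (adjusted p = 5.66e-08), as was Aire.

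Aire (chr10:78030022-78043610, minus strand) overlaps the start of Dnmt3l (chr10:78042287-78063622, plus strand) by 1324 bases. In the GENCODE M21 annotation 67 of 3825 exonic bases of Aire, 1.75%, are also exonic in Dnmt3l. The counting did not use strand and dropped fragments shared by genes, so reads of either gene within the overlap may be lost or misplaced. Dnmt3l, a cofactor of the de novo DNA methyltransferases, had normalised counts of 2938 and 1534 in wild-type EpiLCs, 47.8 and 30.3 at day 2 and 1.81 and 0 at day 6 without cytokines, and 1430 and 1824 in PGCLCs. Like Aire it was thus high in wild-type EpiLCs and PGCLCs and low without cytokines. In TKO Dnmt3l fell from EpiLCs to day 2 without cytokines (-2.10, SE 0.38, adjusted p = 0.00223), as did Aire, and whether the falls of these genes differ was not tested. Dnmt3l was higher in TKO than in wild type at day 6 without cytokines (9.31, SE 0.68, adjusted p = 3.54e-08), as was Aire, and at day 2 it was also higher (4.14, SE 0.45, adjusted p = 9.02e-06), where Aire did not pass. At day 6 with cytokines, the comparison that chose Aire, Dnmt3l was at 973 and 425 in TKO. It was thus also lower than in wild-type PGCLCs there, with a log2 fold change of -1.23 (SE 0.37).

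Slc15a2 lies at chr16:36750161-36785158 and Enpp2 at chr15:54838901-54952789, both on the minus strand. The 2 nearest genes on each side of the members, 12 in all, were read beside them, and 9 of these were tested. In TKO against wild type 1 was higher and 0 lower in EpiLCs, 3 higher and 1 lower at day 2, and 4 higher and 1 lower at day 6 without cytokines. Next to Slc15a2, Ildr1 was higher at day 2 (2.44, SE 0.30, adjusted p = 2.47e-05) and at day 6 (6.37, SE 0.40, adjusted p = 9.49e-09), and Iqcb1 in EpiLCs (0.78, SE 0.22, adjusted p = 0.0319), while Eaf2 passed at none. None of these 3 was called lower in TKO. Over all genes tested 3.18%, 14.8% and 26.9% were called lower at these stages, so no difference from Slc15a2 is read from this. Next to Enpp2, Mal2 fell in wild type from EpiLCs to day 2 as Enpp2 did (-2.06, SE 0.54, adjusted p = 0.00837) and was higher in TKO at day 2 (1.53, SE 0.54, adjusted p = 0.0399). At day 6 with cytokines its means were 6.15 in wild-type PGCLCs and 19.3 in TKO.

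Over 18 libraries the Pearson correlation of log2 CPM was 0.04 between Slc15a2 and Enpp2, 0.26 between Slc15a2 and Aire and 0.51 between Enpp2 and Aire, as a description over libraries that share conditions. These include the 4 libraries that chose the genes, which fix part of each value. Over the other 14 the correlations were -0.57, -0.17 and 0.60, so those with Slc15a2 turned negative. The genes whose pattern was most like each of them were sought among 12199 genes with a mean count of 50 or more. For Slc15a2 they were Nit1 (0.94), Ddx3y (0.91), Ift80 (0.91), Golph3l (0.90) and Cdk5rap2 (0.90). Nit1 had condition means of 189 to 247 in wild type and 95.0 to 147 in TKO, a smaller step than that of Slc15a2, and Ddx3y, on the Y chromosome, of 497 to 880.2 and 14.7 to 126. For Enpp2 they were Myb (0.93), Utp25 (0.87), Smg9 (0.85), Mtss1 (0.84) and Supt20 (0.83). Myb, a transcription factor of progenitor cells, had means of 741 in wild-type EpiLCs and 241 in wild type at day 2, and of 988, 551 and 187 in TKO EpiLCs and TKO at days 2 and 6 without cytokines, given without a test since the gene was picked for this pattern. For Aire they were Stk10 (0.94), Abcc1 (0.94), Usp28 (0.92), 4930513N10Rik (0.90) and Dym (0.90). These lists too rest on all 18 libraries, and they depend on the measure: by Spearman correlation 0, 1 and 3 of the 5 genes were shared, and over the 9 condition means 2, 3 and 3.

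Summed levels of cell type markers differed between the conditions in which the members were compared. A sum can differ through a few abundant genes. The 14 PGC markers summed to 50805 to 55206 in wild-type PGCLCs and 37332 to 42590 in TKO at day 6 with cytokines. Of these 8 were called lower and 0 higher, with a median log2 fold change of -1.17 (all genes 0.05), where 7.53% of all genes were called lower. In the same comparison, which chose the genes, late germline genes summed to 1871 to 1884 and 4320 to 6863 (10 of 12 called higher). Endoderm markers summed to 79.3 to 118 and 447 to 539.6 (3 of 4 tested called higher). Neural markers summed to 542 to 606 and 1036 to 1871, a higher sum in TKO, but 1 of 10 was called higher and 1 lower. The 8 genes of formative and primed pluripotency summed to 2331 to 2411 and 3542 to 4068 (2 called higher and 1 lower). At day 6 without cytokines PGC markers summed to 3753 to 5027 in wild type and 31457 to 32468 in TKO. The 10 neural markers summed there to 32277 to 38421 in wild type and 1839 to 2451 in TKO. The comparison of genotypes at day 6 without cytokines, in which Slc15a2 was lower and Aire higher in TKO, is therefore also one of cells with high and low neural markers. Higher in TKO in that comparison were also mesoderm markers (301 to 420.4 against 2176 to 2857), endoderm markers (10.4 to 77.5 against 281 to 426) and late germline genes (59.1 to 155 against 3870 to 3950). At day 2 without cytokines Slc15a2 was lower and Enpp2 higher in TKO. PGC markers summed there to 10716 to 15145 in wild type and 30164 to 32207 in TKO (10 of 14 called higher). Neural markers summed to 4214 to 5369 and 1483 to 1867 (5 of 10 called lower). Genes of formative and primed pluripotency summed to 22623 to 30203 and 11625 to 12659 (3 of 8 called lower). The 12 late germline genes summed there to 175 to 242 and 2445 to 2540, and all 12 were called higher in TKO. Mesoderm markers summed to 518 to 786 and 1777 to 2736, with 4 of 7 tested called higher. Of the TKO sum Col1a1 held 1087 and 1928, against 354 and 185 in wild type. Endoderm markers summed to 59.8 to 76.0 and 163 to 203, with 1 of 4 tested called higher and a median of -0.11. In EpiLCs Slc15a2 was already lower in TKO. The 8 genes of formative and primed pluripotency summed there to 61790 to 67122 in wild type and 32587 to 33296 in TKO. Of these 2 were called lower and 0 higher, with a median log2 fold change of -0.22. Neural markers summed to 686 to 716 and 447 to 459, with 1 of 10 called lower and a median of 0.04 (all genes 0.04). The 14 PGC markers summed to 19857 to 22195 in wild-type EpiLCs and 22413 to 24776 in TKO EpiLCs, with 5 called higher and 0 lower. Higher in TKO EpiLCs was also the sum of late germline genes (1255 to 1513 against 2538 to 3435, with 6 of 12 called higher). So was that of mesoderm markers (173 to 206 against 716 to 846, 2 of 7 tested). That of endoderm markers was higher as well (20.6 to 24.1 against 94.6 to 146, 3 of 4 tested). The part of these differences in the results for the 3 genes was not tested.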

How the data were processed

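Bulk RNA-seq of 18 libraries, 2 in each of 9 conditions, was used. The deposited values are raw counts of fragments per gene. According to the submitters' processing notes and the file header, the authors trimmed reads with Trim Galore 0.5.0 and cutadapt 1.16, aligned them to mm10 with STAR 2.7.1a and counted them over RefSeq exons with featureCounts (Subread 1.5.2), without strand. Fragments mapping to several places or shared by genes were not counted, which can lower the values of close relatives and of overlapping genes. All value columns were mapped to samples by name, and 33 comment lines were left out of the 25239 genes.

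Groups came from the labels. Differences were tested with edgeR 4.0.16 (TMM factors, filterByExpr, 1 quasi-likelihood fit of 9 condition means with 9 residual degrees of freedom, R 4.3.3), with Benjamini-Hochberg adjustment over 16582 genes and a limit of 0.05. Each standard error was approximated from the F statistic, as the size of the log2 fold change over its square root. Normalised counts are raw counts divided by DESeq2 1.42.0 size factors. Levels were not divided by length, so those of different genes, and a gene's part in a summed level, do not give relative amounts of transcript. The comparison that chose the genes was fitted for all genes, but no p-value of the 3 genes is given for it or for comparisons sharing its groups. Genes of similar pattern were the 5 with the highest Pearson correlation of log2 CPM (prior count 2). Named relatives were taken from fixed lists, mostly where called. The genes and lists were chosen with earlier results of these data known. An exact permutation test of 2 against 2 libraries cannot reach 0.05. On simulated EpiLC data (16406 genes) the test recovered 170 of 200 changes of 4-fold and called 9 unchanged genes. Alternatives were other filters and factors, DESeq2, a replicate block, only the libraries compared, and leaving out each library. Figures were drawn with matplotlib 3.10.9.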

Additional observations from a re-analysis of the deposited data

Results flagged for a closer look

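For Enpp2 the change from EpiLCs to day 2 without cytokines differed between the genotypes by 2.08 on the log2 scale (SE 0.52, adjusted p = 0.0161, edgeR), with -2.09 in wild type and -0.02 in TKO. It was picked out because the difference itself passed the test.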

How the results depend on the processing

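With the replicate number as a block no call of the 3 genes changed (Slc15a2 in EpiLCs -3.79, adjusted p = 0.00498, Enpp2 at day 2 2.20, adjusted p = 0.000552, Aire at day 6 3.40, adjusted p = 0.000882). Same-numbered libraries did not deviate together: over 36 pairs of conditions the correlation ran from -0.156 to 0.182, and 7 were over 0.1. The calls of lower Slc15a2 at 3 stages, of higher Enpp2 in TKO at day 2 and of higher Aire in TKO at day 6 held under every filter, factor and tool tried. The cause of the changes that follow was not tested.

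Without a filter on low counts these comparisons also passed: genotype by time from day 2 to day 6 for Slc15a2 (2.35, adjusted p = 0.0389) and Enpp2 (-1.54, adjusted p = 0.0147), cytokines at day 2 (-1.03, adjusted p = 0.0348) and EpiLCs to day 2 with cytokines (-1.07, adjusted p = 0.0163) for Enpp2 in TKO, and for Aire day 2 to day 6 in TKO (2.12, adjusted p = 0.0210) and genotype by time to day 2 (2.39, adjusted p = 0.0381). By the DESeq2 Wald test genotype by time from day 2 to day 6 passed for Slc15a2 (2.33, adjusted p = 0.0298) and Enpp2 (-1.61, adjusted p = 0.0254), and EpiLCs to day 2 with cytokines in TKO for Enpp2 (-1.06, adjusted p = 0.0407). With RLE factors genotype by time from day 2 to day 6 was -1.61, adjusted p = 0.0489 for Enpp2. Fitted on only the libraries compared, Enpp2 passed for cytokines at day 2 (-1.05, adjusted p = 0.0364), and Aire in TKO against wild type at day 2 (1.72, adjusted p = 0.0392) and from day 2 to day 6 in TKO (2.11, adjusted p = 0.00334). With an added limit of 2 on the log2 fold change, the wild-type rise of Slc15a2 (1.68) was not called.

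Scaling by library size alone moved the median of all genes to 0.34 in EpiLCs, 0.24 at day 2 and 0.16 at day 6 for TKO against wild type, from 0.04 or less. The share of calls that were higher then went from 70.4% to 93.1% in EpiLCs and from 54.8% to 72.9% at day 2. For cytokines at day 2 it went from 45.4% to 3.61%, and from EpiLCs to day 2 from 54.3% to 94.6% in TKO and from 54.2% to 86.1% in wild type. Under that scaling Enpp2 passed for cytokines at day 2 (-1.47, adjusted p = 0.0184) and for genotype by time from day 2 to day 6 (-1.66, adjusted p = 0.0448). Its TKO step from EpiLCs to day 2 turned to 0.48, adjusted p = 0.327, and to 0.016, adjusted p = 0.980 with a filter at a mean CPM of 1. Enpp2 in TKO at day 2 without cytokines against wild-type PGCLCs, -0.06, turned to 0.36 by library size alone and ran from -0.18 to 0.056 when 1 library was left out.

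Some list counts moved too. At day 6 the 12 partner proteins of Aire higher in TKO became 6 with only the libraries compared, where the 4 higher inducers became 2 and the 5 higher thymic markers 3. By library size alone the 3 lower inducers at day 2 became 1 and the 2 lower partners in EpiLCs and at day 2 became 0.

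When 1 library was left out, values that lost or gained a call or turned ran as follows. For Slc15a2 they ran from -0.76 to 5.12 for EpiLCs to day 2 in TKO without cytokines, from -4.84 to 2.63 with cytokines and from 1.51 to 1.85 in wild type, and from -2.44 to 3.44 and from 1.77 to 3.23 for genotype by time to day 2 and to day 6. For Enpp2 they ran from -0.0505 to 0.33 for TKO against wild-type EpiLCs, from -0.20 to 0.18 and from -1.90 to -0.53 for EpiLCs to day 2 in TKO without and with cytokines, from -2.38 to -1.81 and from -0.95 to 0.10 for day 2 to day 6 in TKO and wild type, and from 1.65 to 2.70 and from -2.19 to -1.12 for genotype by time. For Aire they ran from -2.16 to -0.00357 for EpiLCs, from -3.90 to -1.74 for EpiLCs to day 2 in TKO, from -2.09 to 1.18 for day 2 to day 6 in wild type and from 1.69 to 3.85 for genotype by time to day 2. A condition left with 1 library is assumed to vary like the others. The correlations over 14 libraries were added after seeing the data. Low counts of Slc15a2 in TKO and of Aire in wild type without cytokines limit these values.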
